A study of Mus musculus with 12 samples.

Results

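Major histocompatibility complex (MHC) class I molecules and the genes that load them with peptide were followed in cultured mouse CD8+ T cells. The 10 genes were taken by name from a list chosen with earlier results of these data known. All 10 were found among the 56748 genes of the count table and passed the filter on low counts, which left 15688 genes. They are B2m (ENSMUSG00000060802.9), 6 class I heavy chain genes, H2-K1 (ENSMUSG00000061232.17), H2-D1 (ENSMUSG00000073411.13), H2-Q4 (ENSMUSG00000035929.12), H2-Q7 (ENSMUSG00000060550.17), H2-T22 (ENSMUSG00000056116.19) and H2-T23 (ENSMUSG00000067212.9), and the loading genes Tap1 (ENSMUSG00000037321.18), Tap2 (ENSMUSG00000024339.13) and Tapbp (ENSMUSG00000024308.16). B2m lies on chromosome 2 and the other 9 on chromosome 17.

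The study asked whether redirecting glucose use during culture changes T cells grown for therapy, and compared cells grown with and without 5 mM dichloroacetate (DCA), an inhibitor of the pyruvate dehydrogenase kinases. The libraries, sequenced in bulk, form 4 groups. The DCA group and the untreated group of experiment 2 came from 3 mice labelled Pmel-1 (B6.Cg-Thy1a/Cy carrying Tg(TcraTcrb)8Rest/J), whose transgenic T cell receptor recognises gp100. The DCA group and the untreated group of experiment 1 came from 3 other mice, whose titles say Pmel-1 but whose strain and genotype labels say OT-1 (C57BL/6-Tg(TcraTcrb)1100Mjb/J), a receptor for SIINFEKL. Spleen cells of both kinds were given their peptide for 24 hours (250 nM SIINFEKL or 1 uM gp100) and then kept for 6 days with 50 ug/mL IL-2, with DCA or without it. CD8+ cells were sorted on day 7. Each mouse gave 1 DCA and 1 untreated library, and the age and sex of the mice are not in the labels.

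The segment Trbv14 had 1966 to 2876 CPM (here counts scaled by the raw library total) in the 6 libraries of experiment 2 and 0 CPM in those of experiment 1, while Trbv12-1 had 0.0688 to 0.550 CPM in experiment 2 and 169 to 214 CPM in experiment 1, so the libraries split by receptor as the strain labels do. Libraries held 29071500 to 34553300 counts in experiment 2 and 28039700 to 41051100 in experiment 1 (rounded to 6 digits). Genes with at least 1 count numbered 23635 to 26571 in experiment 2 and 18382 to 19551 in experiment 1. Cd8a had 561 to 738 CPM in experiment 2 and 274 to 379 CPM in experiment 1, and Cd4 reached at most 0.638 CPM, on the same raw scale. With TMM factors, used for all CPM from here on, Cd8a averaged 509 CPM in DCA cells and 650.4 CPM in untreated cells of experiment 2, and 376 CPM in DCA cells and 382 CPM in untreated cells of experiment 1. The labels name 2 technical batches, and strain, batch and experiment cannot be told apart.

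Class I molecules carry peptides from inside the cell to the surface, where CD8+ T cells read them. Each consists of a heavy chain, which holds the peptide, and beta-2 microglobulin, the light chain that B2m encodes. The proteasome cuts proteins into peptides, the transporter made of the Tap1 and Tap2 products pumps them into the endoplasmic reticulum, and tapasin, the product of Tapbp, holds the empty heavy chain at the transporter until it is loaded. H2-K1 and H2-D1 encode the classical, highly polymorphic heavy chains. H2-Q4, H2-Q7, H2-T22 and H2-T23 are non-classical genes, of which H2-Q7 encodes a Qa-2 antigen, H2-T22 a ligand of some gamma delta T cell receptors, and H2-T23 the Qa-1 antigen that displays leader peptides of other class I chains. Interferons and the transactivator NLRC5 raise most of these genes, acting on short elements just before their start sites.

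Those elements are shown for the light chain and 5 heavy chains, because the heavy chains are near copies of each other. Their part in any difference between the groups was not tested. The stretches are 120 bases long, lie entirely before the annotated start, come from RefSeq promoter windows of 300 bases (build GRCm38.p6) and read 5′ to 3′ on the gene's strand. Capitals mark every hit, on either strand, to GAAANNGAA or GAANNGAAA (the interferon response element in its 2 spacings), GGGATTCCC (a site for NF-kappa-B), TGACGC (a CRE-like site) and CCAAT.
H2-D1 (chr17:35262909-35263028, + strand): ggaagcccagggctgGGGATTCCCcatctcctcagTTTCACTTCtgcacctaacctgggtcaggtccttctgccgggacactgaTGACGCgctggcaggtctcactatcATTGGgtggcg
H2-K1 (chr17:34000353-34000472, - strand): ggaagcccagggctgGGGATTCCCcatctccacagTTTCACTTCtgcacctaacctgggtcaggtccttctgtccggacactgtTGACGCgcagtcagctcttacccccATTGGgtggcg
H2-Q7 (chr17:35439007-35439126, + strand): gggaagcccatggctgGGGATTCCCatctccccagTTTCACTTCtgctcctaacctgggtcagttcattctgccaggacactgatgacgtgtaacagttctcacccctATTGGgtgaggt
H2-Q4 (chr17:35379429-35379548, + strand): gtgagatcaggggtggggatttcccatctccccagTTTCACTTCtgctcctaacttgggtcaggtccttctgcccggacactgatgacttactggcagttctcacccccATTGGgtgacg
H2-T22 (chr17:36042848-36042967, - strand): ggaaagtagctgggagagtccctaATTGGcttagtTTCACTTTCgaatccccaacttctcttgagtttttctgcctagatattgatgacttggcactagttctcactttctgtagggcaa
B2m (chr2:122147513-122147632, + strand): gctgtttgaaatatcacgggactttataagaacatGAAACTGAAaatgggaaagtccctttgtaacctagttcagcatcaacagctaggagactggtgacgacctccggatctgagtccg

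A window was listed for 9 of the 10 genes, and Tap2 had none. The spacing GAAANNGAA occurred in B2m, H2-T22 and H2-T23 and in 8.56% of all 32851 windows. The spacing GAANNGAAA, added after these promoters had been read, occurred in H2-K1, H2-D1, H2-Q4 and H2-Q7 and in 7.52% of all windows. Together 7 of the 9 windows held 1 of the spacings, against 14.8% of all windows. Because the second spacing was chosen from these same promoters, some of them near copies, this count cannot show enrichment. GGGATTCCC occurred in H2-K1, H2-D1 and H2-Q7, against 0.353% of all windows. It was searched as the NF-kappa-B site of class I genes, so its count cannot show enrichment either. TGACGC occurred before the start of H2-K1 and H2-D1 and after the start of H2-Q4, against 7.4% of all windows, and CCAAT in all 9, against 37.4%. The H2-K1 and H2-D1 stretches matched at 109 of 120 bases and the H2-Q4 and H2-D1 stretches at 102 of 120, whereas the H2-Q7 stretch, compared base by base without gaps, matched H2-D1 at 79 of 120. These matches describe the letters only.

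The likeness continues in the transcripts, which bears on how reads could be assigned. Of the distinct 50-base stretches in the GENCODE M21 transcripts (GRCm38), 34.5% of those of H2-T22 also occurred in another gene, and 31.2% in H2-T10. The share was 26.4% for H2-Q7, 21.8% for H2-Q4, 13.6% for H2-T23, 12.8% for H2-D1 and 9.63% for H2-K1. It was 2.87% for Tapbp, 0.655% for Tap2, 0.442% for Tap1 and 0 for B2m. At 100 bases the order changed: H2-Q7 shared 12%, H2-T22 8.86% (6.92% with H2-T10), H2-D1 3.59%, H2-T23 3.15%, H2-Q4 2.16% and H2-K1 0.957%. The treatment of reads with several matches is not given in the sources used here. Values of the single heavy chain genes carry that uncertainty.

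Placed on a common scale of CPM per kilobase of gene length, B2m was the highest of the 10 in every group, at 3699 ± 61.4 in DCA cells and 3433 ± 324 in untreated cells of experiment 2 and 1820 ± 160 in DCA cells and 1598 ± 30.4 in untreated cells of experiment 1 (SD, n = 3 each). H2-D1 followed, at 1587 ± 58.9 in DCA cells and 1544 ± 36.7 in untreated cells of experiment 2, and 356 ± 14.1 in DCA cells and 427 ± 29.0 in untreated cells of experiment 1. H2-K1 was next, at 514 ± 35.1 and 484 ± 7.40 in DCA and untreated cells of experiment 2 and 218 ± 11.3 and 221 ± 8.34 in those of experiment 1. The light chain and both classical heavy chains therefore stood apart from the rest, with no overlap between neighbours.

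Below them the order depended on the experiment. In DCA cells of experiment 2, H2-Q7 (59.4 to 63.3 CPM per kilobase), Tapbp (59.3 to 62.9), H2-T22 (58.3 to 60.6) and H2-T23 (56.9 to 59.9) overlapped. In untreated cells of experiment 1 the same scale gave H2-T22 43.9 to 46.9, H2-T23 26.1 to 29.9, Tapbp 20.8 to 23.6 and H2-Q7 14.5 to 15.2, with no overlap. Tap1 averaged 36.3 and 38.6 CPM per kilobase in DCA and untreated cells of experiment 2 and 11.8 and 11.7 in those of experiment 1, and Tap2 on the same scale 10.2, 12.3, 4.17 and 4.08, so that Tap1 was the higher in every group. H2-Q4 was the lowest of the 10 in every group, at 1.91 to 2.47 CPM per kilobase on average.

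**Figure D1:**
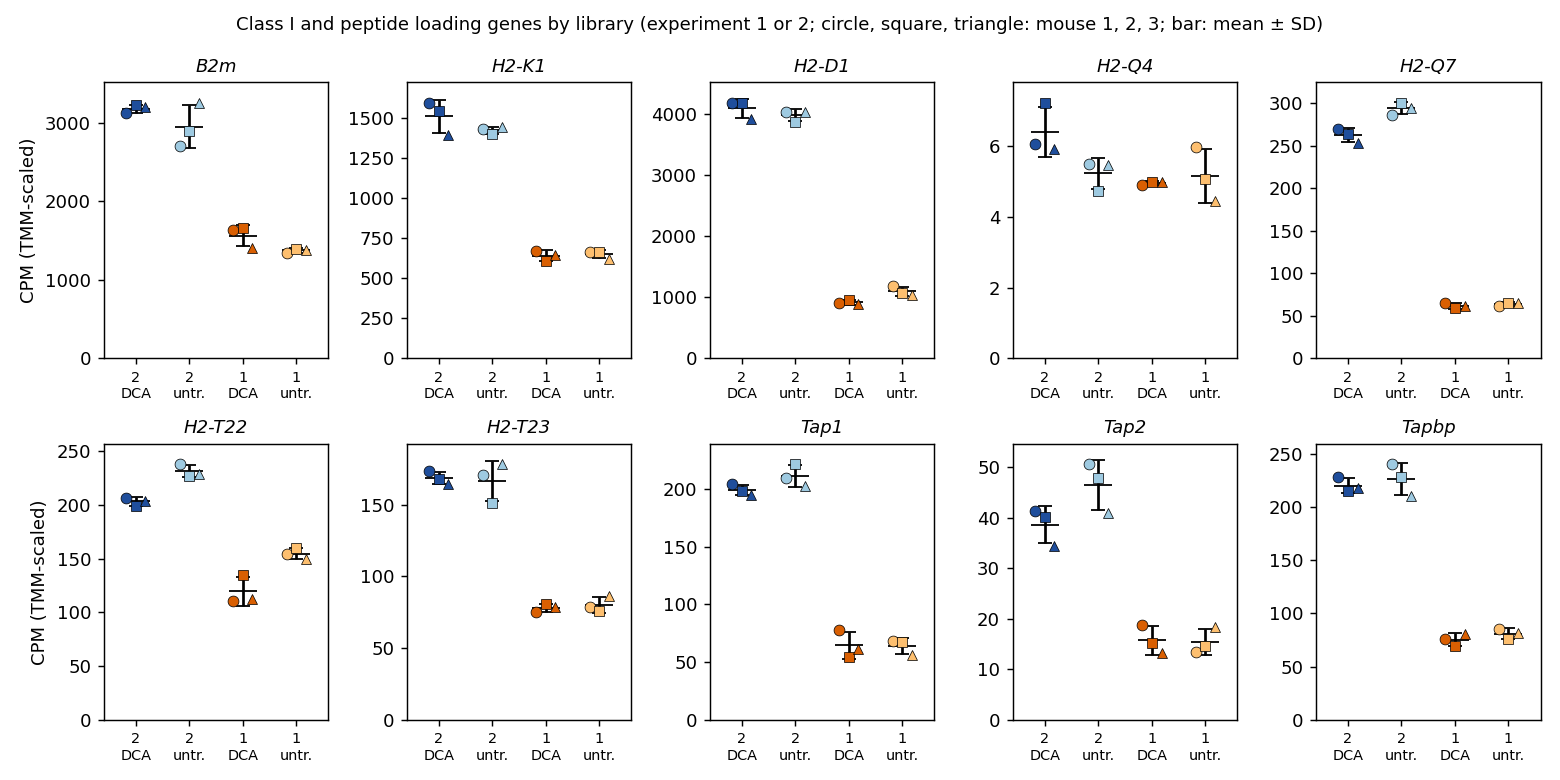
CPM after TMM scaling (y axis, linear, from 0) of each of the 10 genes in the 12 libraries, by experiment and treatment (x axis); points are libraries, marked by mouse, and bars are the mean and SD of 3 libraries. H2-Q4 overlaps between the experiments in untreated cells, the other 9 genes lie higher in experiment 2 than in experiment 1 in both treatments, and H2-T22 lies lower in DCA cells than in untreated cells in each experiment.

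The DCA response over both experiments was small. H2-T22 fell, and the other 9 genes did not pass the test. That is 1 of 10 called, against 16.8% of all tested genes called in either direction and 9.8% called lower (edgeR quasi-likelihood test with a term for experiment, Benjamini-Hochberg adjusted p under 0.05). The log2 fold changes of the 10 genes ran between -0.28 and 0.15, and 3 of them were above 0; the median over all tested genes was -0.02. In bulk RNA, fewer cells of a type and less RNA per cell cannot be told apart.

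H2-T22 had 207, 199 and 204 CPM in DCA cells of mice 1, 2 and 3 of experiment 2, against 238, 228 and 229 CPM in the untreated cells of the same mice. In experiment 1 it had 111, 135 and 113 CPM in DCA cells, against 154, 160.3 and 150.0 CPM in untreated cells. The groups did not overlap within either experiment, and DCA cells were lower in 6 of 6 mice, a pattern that 11.1% of all tested genes also showed. The log2 fold change over both experiments was -0.28 (SE 0.060, adjusted p = 0.00577), a fold of 0.824. The call was lost with cyclic loess normalization, which scales high and low genes separately (log2 fold change -0.16, adjusted p = 0.0571). The authors' deposited table also lists H2-T22 as lower with DCA, with a log2 fold change of -0.28 and a false discovery rate of 0.0407. H2-T10, the gene that shares most sequence with H2-T22, had a log2 fold change of -0.17 (SE 0.098, adjusted p = 0.260).

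B2m had 3122, 3223 and 3198 CPM in DCA cells of experiment 2, against 2709, 2893 and 3256 CPM in untreated cells. In experiment 1 it had 1633, 1656 and 1407 CPM in DCA cells, against 1345, 1394 and 1385 CPM in untreated cells. DCA cells were higher in 5 of 6 mice, and mouse 3 of experiment 2 was the exception. The log2 fold change was 0.15 (SE 0.052), with an adjusted p of 0.0640 by edgeR, which missed the threshold. It passed with cyclic loess normalization (0.32, adjusted p = 0.00131), with a filter at 5 CPM (0.19, adjusted p = 0.0283), without the DCA library of mouse 3 of experiment 1 (adjusted p = 0.0320) and without the untreated library of mouse 3 of experiment 2 (adjusted p = 0.0212). The authors' deposited table gives a log2 fold change of 0.15 with a false discovery rate of 0.451.

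The classical heavy chains did not pass the test over both experiments. H2-K1 had 1593, 1542 and 1394 CPM in DCA cells and 1431, 1398 and 1439 CPM in untreated cells of experiment 2, and 671, 605 and 643 CPM in DCA cells and 666, 663 and 622 CPM in untreated cells of experiment 1. The groups overlapped in both experiments, and the log2 fold change was 0.03 (SE 0.047, adjusted p = 0.720). Under cyclic loess normalization it was 0.19 and passed (adjusted p = 0.0283). H2-D1 had a log2 fold change of -0.11 (SE 0.057, adjusted p = 0.202), and its sign turned to 0.06 under cyclic loess. Without the untreated library of mouse 1 of experiment 1 it was -0.07 (adjusted p = 0.414).

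Of the other non-classical genes, H2-Q7 was lower in DCA cells in 5 of 6 mice, with a log2 fold change of -0.11 (SE 0.050, adjusted p = 0.159). H2-T23 had a log2 fold change of -0.01 (SE 0.059, adjusted p = 0.926). H2-Q4, with 4.45 to 7.23 CPM over the 12 libraries, had a log2 fold change of 0.12 (SE 0.14, adjusted p = 0.637). None of these passed, and all 3 changed sign under cyclic loess.

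The transporter and tapasin genes did not pass either. Tap1 had a log2 fold change of -0.04 (SE 0.081, adjusted p = 0.800), Tap2 of -0.12 (SE 0.11, adjusted p = 0.527) and Tapbp of -0.07 (SE 0.059, adjusted p = 0.458). Tapbp was lower with DCA in 5 of 6 mice. Tap1 and Tapbp changed sign under cyclic loess. Across all tested genes this normalization turned 1100 higher and 1538 lower calls into 1231 higher and 1041 lower ones.

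**Figure D2:**
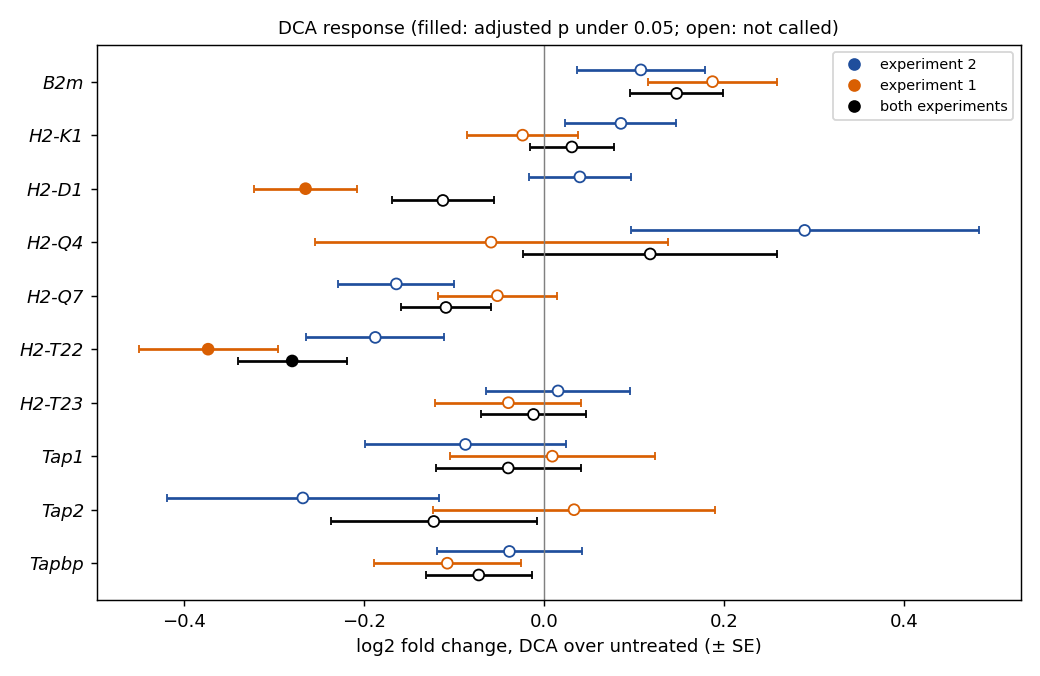
Log2 fold change of DCA over untreated cells (x axis) for the 10 genes (y axis) in experiment 2, experiment 1 and both together; bars are SE and filled points passed the adjusted p of 0.05. Filled points are H2-T22 in experiment 1 and over both experiments and H2-D1 in experiment 1.

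Within experiment 2 no gene of the 10 was called, against 4.57% of all tested genes; 2 had an unadjusted p under 0.05, and DESeq2 called 1. Those 2 were H2-T22, with a log2 fold change of -0.19 (SE 0.076, adjusted p = 0.200), and H2-Q7. H2-Q7 had 270, 263 and 253 CPM in DCA cells, against 286, 300.2 and 295 CPM in untreated cells. Its groups did not overlap, as for 14.6% of all tested genes in that direction, and its log2 fold change was -0.16 (SE 0.065, adjusted p = 0.182; DESeq2 adjusted p = 0.0356). H2-Q4 had 6.05, 7.23 and 5.92 CPM in DCA cells, against 5.50, 4.73 and 5.48 CPM in untreated cells. Its groups did not overlap and DCA was higher, as for 15.6% of all tested genes, but the log2 fold change of 0.29 (SE 0.19) did not pass (adjusted p = 0.480).

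Within experiment 1, H2-T22 and H2-D1 fell in DCA cells: 2 of 10 genes, against 16.7% of all tested genes called in either direction and 11% called lower. H2-D1 had 906, 958 and 888 CPM in DCA cells, against 1185, 1078 and 1042 CPM in untreated cells. With TMM factors every DCA library was thus below every untreated one, as for 18% of all tested genes. The log2 fold change of H2-D1 was -0.26 (SE 0.057, adjusted p = 0.00600). As shares of the raw total, its groups overlapped. The DCA library of mouse 2 held 26715 of 30494791 counts, a slightly larger share than 29503 of 33799594 in the untreated library of mouse 3. H2-T22 had a log2 fold change of -0.37 (SE 0.077, adjusted p = 0.00494). Neither was called when experiment 1 was fitted alone (adjusted p = 0.130 for H2-D1 and 0.0726 for H2-T22) or with cyclic loess (adjusted p = 0.701 and 0.0773), and H2-D1 also missed the threshold with the 5 CPM filter (adjusted p = 0.0561). B2m did not overlap between the groups either, with DCA higher, as for 11.3% of all tested genes, and its log2 fold change of 0.19 (SE 0.071) had an adjusted p of 0.0888. It passed with cyclic loess (adjusted p = 0.00253) and the 5 CPM filter (adjusted p = 0.0202), and when 1 library was left out: the DCA library of mouse 3 of experiment 1 (adjusted p = 0.0233) or the untreated library of mouse 1 or 3 of experiment 2 (adjusted p = 0.0315 and 0.0355).

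H2-D1 in experiment 2 had 4179, 4184 and 3918 CPM in DCA cells, against 4038, 3873 and 4035 CPM in untreated cells, and these groups overlapped. Its log2 fold change there was 0.04 (SE 0.057, adjusted p = 0.795). The difference between the DCA effects of experiment 2 and experiment 1 was tested directly, and for H2-D1 it was 0.30 (SE 0.080, unadjusted p = 0.00189 by edgeR), which missed the threshold after adjustment (adjusted p = 0.106; between 0.0519 and 0.463 over 19 alternative settings). No gene of the 10 was called for this difference, against 0.331% of all tested genes; H2-D1 was the 1 with an unadjusted p under 0.05, and DESeq2 called 0. For H2-T22 the difference was 0.19 (SE 0.11, adjusted p = 0.478) and for B2m -0.08 (SE 0.10, adjusted p = 0.794).

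Ratios within a library do not depend on its scaling factor and are given as a description, not per length. In experiment 1 the ratio of B2m to H2-D1 counts was 1.58 to 1.80 in DCA cells, against 1.13 to 1.33 in untreated cells. In experiment 2 it was 0.747 to 0.816 in DCA cells, against 0.671 to 0.807 in untreated cells. DCA and untreated libraries were thus separate in experiment 1 and overlapped in experiment 2. The separation follows from the TMM-scaled CPM of B2m and of H2-D1, which did not overlap in experiment 1, and adds no support to them. The ratio of H2-D1 to H2-K1 was 2.62 to 2.81 in DCA cells and 2.77 to 2.82 in untreated cells of experiment 2, and 1.35 to 1.58 in DCA cells and 1.63 to 1.78 in untreated cells of experiment 1.

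A sum over the 6 heavy chain genes does not depend on how reads were split among these 6, but still depends on how reads shared with class I genes outside the sum, such as H2-T10, H2-Q10 and H2-Q1, were assigned. The sum was 6244 ± 265 CPM in DCA cells and 6102 ± 128 CPM in untreated cells of experiment 2, and 1821 ± 28.7 CPM in DCA cells and 2056 ± 91.5 CPM in untreated cells of experiment 1 (SD, n = 3 each). H2-K1 and H2-D1 together made up 84.5 to 89.98% of that sum of counts in the 12 libraries. The log2 fold change of the sum with DCA was 0.03 (SE 0.048) in experiment 2, -0.17 (SE 0.048) in experiment 1 and -0.07 (SE 0.044) over both. The fall in experiment 1 depended on scaling. As a share of the raw total, the sum overlapped there, at 0.163 to 0.171% in DCA cells and 0.165 to 0.182% in untreated cells. TMM factors of experiment 1 were 0.910 to 0.934 in DCA cells and 0.818 to 0.845 in untreated cells. In experiment 1, B2m relative to the sum was 0.787 to 0.899 in DCA cells, against 0.625 to 0.703 in untreated cells. This separation, too, follows from the scaled CPM of B2m and of the sum, which did not overlap there.

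**Figure D3:**
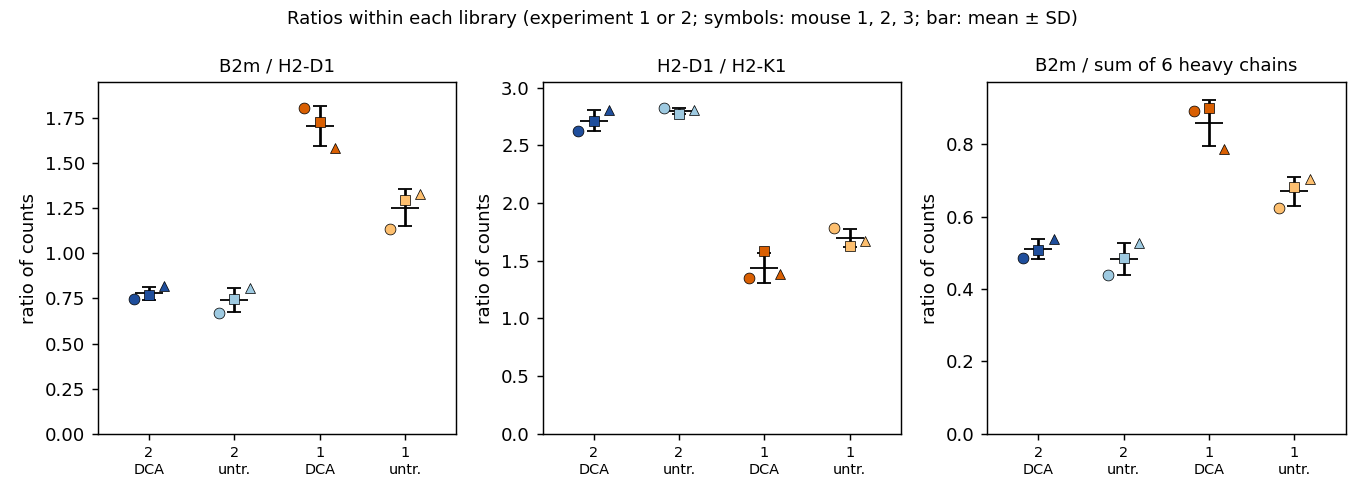
Ratios of counts within each library (y axes, linear, from 0) by experiment and treatment (x axis): B2m to H2-D1, H2-D1 to H2-K1, and B2m to the sum of 6 heavy chain genes; points are libraries marked by mouse and bars are mean and SD of 3. In experiment 1 the DCA libraries lie above the untreated ones for both B2m ratios and below them for H2-D1 to H2-K1; in experiment 2 the groups overlap.

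Much larger differences separated the experiments. In untreated cells 9 of the 10 genes were higher in experiment 2 than in experiment 1, against 26.7% of all tested genes called higher and 51.8% called in either direction. With TMM factors H2-Q7 differed most, at 286, 300.2 and 295 CPM in experiment 2, against 61.7, 65.0 and 65.0 CPM in experiment 1. Its log2 fold change was 2.20 (SE 0.068, adjusted p = 1.17e-11 by edgeR). H2-D1 had a log2 fold change of 1.85 (SE 0.058) and H2-K1 of 1.13 (SE 0.062). B2m, the light chain, had a log2 fold change of 1.10 (SE 0.072). The loading genes were higher too, by a log2 fold change of 1.72 (SE 0.12) for Tap1, 1.59 (SE 0.16) for Tap2 and 1.48 (SE 0.082) for Tapbp.

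H2-T23 had a log2 fold change of 1.06 (SE 0.081) between the experiments and H2-T22 of 0.58 (SE 0.077, adjusted p = 1.46e-05), the smallest called among the 10. H2-Q4 was the gene that did not pass: it had 5.50, 4.73 and 5.48 CPM in untreated cells of experiment 2, against 5.97, 5.07 and 4.45 CPM in those of experiment 1, with a log2 fold change of 0.02 (SE 0.19, adjusted p = 0.937). The other 9 genes did not overlap between the experiments, whereas 31.5% of all tested genes were separate and higher.

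The sizes depended on scaling. Under cyclic loess normalization, which moved the median over all genes by -0.13, the same comparison gave B2m 2.19, H2-K1 2.03, H2-D1 2.93 and H2-T22 1.05. Each of these was over 1.5 times the log2 value with TMM factors. The other called genes grew less. Their highest values in any of the 19 alternative settings were 2.60 for H2-Q7, 2.09 for Tap1, 1.88 for Tapbp, 1.75 for Tap2 and 1.42 for H2-T23. H2-D1 therefore differed more than H2-Q7 under cyclic loess. Again 9 of the 10 genes were called higher. The number called was 9 in each of the 19 alternative settings run. TMM factors themselves were 1.12 to 1.17 in experiment 2 and 0.818 to 0.934 in experiment 1. As a share of the raw total, without scaling, the 10 genes took 1.04 to 1.10% of counts in untreated cells of experiment 2 and 0.294 to 0.309% in those of experiment 1.

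In DCA cells the comparison of the experiments gave 9 genes higher as well, against 28.1% of all tested genes, and all 10 genes lay higher without overlap, against 33.9%. H2-D1 had a log2 fold change of 2.16 (SE 0.059, adjusted p = 6.42e-12 by edgeR), H2-Q7 of 2.09 (SE 0.068) and H2-T22 of 0.77 (SE 0.077). H2-Q4 had a log2 fold change of 0.37 (SE 0.19, adjusted p = 0.127). The DCA and untreated comparisons come from the same mice.

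**Figure D4:**
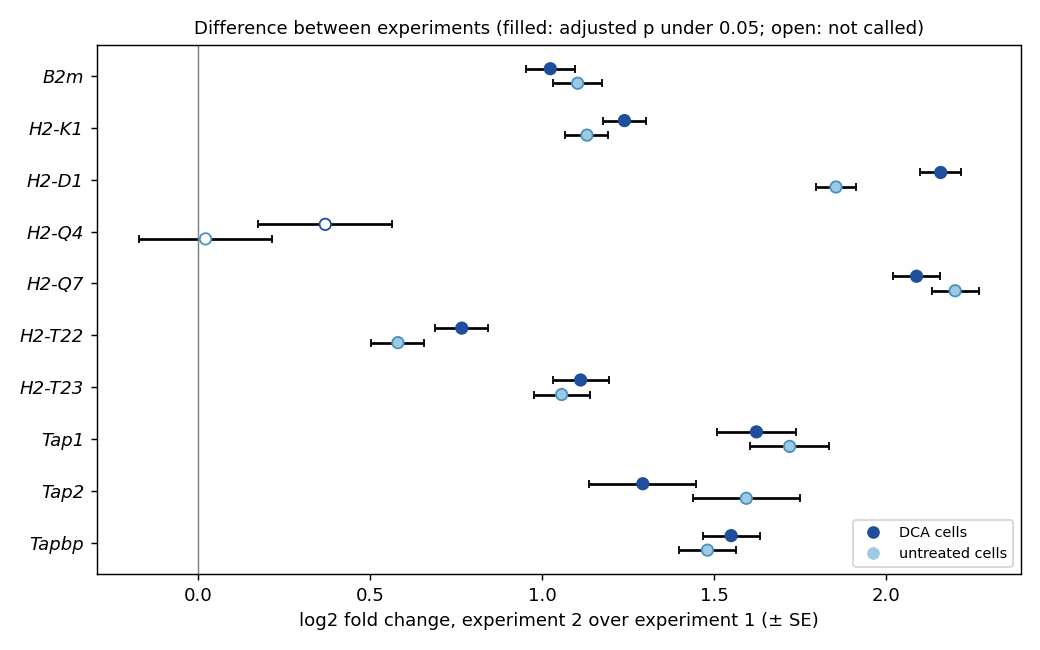
Log2 fold change of experiment 2 over experiment 1 (x axis) for the 10 genes (y axis) in DCA cells and in untreated cells; bars are SE and filled points passed the adjusted p of 0.05. All genes but H2-Q4 are filled, with H2-Q7 and H2-D1 farthest to the right.

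Markers of other cells were compared, since class I is found on most nucleated cells. Summed CD8 T cell markers were 2897 to 3107 CPM in DCA cells and 3373 to 3782 CPM in untreated cells of experiment 2, and 3181 to 3569 CPM in DCA cells and 3014 to 3479 CPM in untreated cells of experiment 1. The 4 B cell markers summed to at most 0.360 CPM, with Ms4a1, Cd22 and Pax5 at 0 in experiment 1. The 5 dendritic cell markers reached at most 1.44 CPM in any library. The 5 class II markers, mostly H2-Ab1, summed to 293 to 332 CPM in DCA cells and 211 to 300.4 CPM in untreated cells of experiment 2, and to 234 to 293 CPM in DCA cells and 129 to 226 CPM in untreated cells of experiment 1. Group averages of H2-Ab1 were 165 to 302 CPM. Those of Cd74 were 1.46 to 8.07 CPM, of H2-Eb1 0.410 to 5.39, of Ciita 0.266 to 1.46 and of H2-Aa 0.195 to 0.712. The 4 NK cell markers, mostly Eomes, summed to 2.39 to 4.996 CPM and 5.97 to 7.18 CPM in DCA and untreated cells of experiment 2, and to 35.8 to 41.0 CPM and 45.3 to 72.3 CPM in those of experiment 1. Klrb1c averaged 0.611 and 0.684 CPM in DCA and untreated cells of experiment 2, and 10.8 and 10.2 CPM in those of experiment 1. The group averages of Ncr1 reached at most 0.0520 CPM and those of Klra8 at most 0.0173 CPM. The 5 macrophage markers summed to 6.73 to 29.9 CPM, nearly all Cd68, with Lyz2, Csf1r and Adgre1 at 0 in experiment 1. Neutrophil and erythroid markers summed to at most 1.98 CPM and 0.705 CPM. The part of these markers in the differences was not tested.

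Genes that work next to the 10 were counted by list. Of 10 chaperone, editing and export genes, 4 fell with DCA over both experiments and 0 rose, with a median log2 fold change of -0.14; of all tested genes 9.8% were called lower and 16.8% in either direction. Pdia3, the disulfide isomerase of the loading complex, averaged 1054 CPM in DCA cells and 1232 CPM in untreated cells of experiment 2, and 1035 CPM in DCA cells and 1560.2 CPM in untreated cells of experiment 1 (log2 fold change -0.41, SE 0.078, adjusted p = 0.00280). Calreticulin, encoded by Calr, which holds the heavy chain's sugar, had a log2 fold change of -0.31 (adjusted p = 0.0109; 0.132 under cyclic loess). Erap1, which trims peptides in the endoplasmic reticulum, had -0.29 (adjusted p = 0.00514), and Tapbpl, the peptide editor TAPBPR, -0.35 (adjusted p = 0.0251). All 4 were lower in 6 of 6 mice, as were 11.1% of all tested genes. Within experiment 1, 5 of the 10 genes of this list were called lower, against 11% of all tested genes. Within experiment 2, 0 of the 10 were called, against 4.57% of all tested genes. The call of Tapbpl was lost without the untreated library of mouse 2 of experiment 2, the DCA library of mouse 3 of experiment 1 or the untreated library of mouse 1 or 2 of experiment 1 (adjusted p between 0.0517 and 0.0579). Canx, the chaperone calnexin, had -0.15 and did not pass (adjusted p = 0.0857; 0.0326 by DESeq2 and 0.0257 by edgeR without the untreated library of mouse 3 of experiment 2). Under cyclic loess 3 genes of the list fell and 1 rose.

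Of 13 immunoproteasome and peptide supply genes, 8 fell with DCA and 1 rose, with a median of -0.22, beside the same 9.8% of all tested genes called lower and 16.8% either way. Psmb8, a catalytic subunit that interferon swaps into the proteasome, averaged 834 CPM in DCA cells and 1101 CPM in untreated cells of experiment 2, and 738 CPM in DCA cells and 1002 CPM in untreated cells of experiment 1. Its log2 fold change was -0.42 (SE 0.042, adjusted p = 4.91e-05), and it passed in each experiment. Psmb10, another such subunit, had -0.33 (adjusted p = 0.000855), Psmf1, a proteasome inhibitor, -0.37 (adjusted p = 0.000736) and the aminopeptidase gene Blmh -0.44 (adjusted p = 0.00170). Psmb9, the remaining catalytic subunit of the immunoproteasome, lies beside Tap1 and had -0.0020 (SE 0.049, adjusted p = 0.985); under cyclic loess it was higher, at 0.15 (adjusted p = 0.0452). Under that normalization 5 genes of the list fell and 3 rose. The 3 constitutive subunits Psmb5, Psmb6 and Psmb7 all fell, with a median of -0.26, and under cyclic loess 1 of them did; Psmb5 also missed the threshold with no filter on low counts (adjusted p = 0.0518) and without the untreated library of mouse 2 of experiment 1 (adjusted p = 0.0515).

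Of 23 genes of transcription and interferon signalling, 1 rose with DCA and 2 fell, with a median of -0.08; 3 of 23 is a share near the 16.8% of all tested genes called either way. Nfyb and Nfyc, which encode subunits of the factor that binds CCAAT, had log2 fold changes of -0.22 (adjusted p = 0.0120) and -0.36 (adjusted p = 0.0149). The call of Nfyb was lost under cyclic loess (adjusted p = 0.251), with no filter on low counts (adjusted p = 0.0557) and without the DCA library of mouse 1 or 2 or the untreated library of mouse 2 of experiment 2 (adjusted p between 0.0614 and 0.0671). Nfkb1 had 0.20 (adjusted p = 0.0497), a call lost with the mouse as a term (0.103), with RLE size factors (0.0535), with no filter on low counts (0.0701) and without any 1 of 9 libraries, namely all of experiment 2, the DCA libraries of mice 1 and 3 and the untreated library of mouse 2 of experiment 1 (adjusted p between 0.0558 and 0.0821). Ifnar2, a chain of the type I interferon receptor, had -0.26 and did not pass (adjusted p = 0.0922), but did with DESeq2 (adjusted p = 0.0493) and by edgeR without the untreated library of mouse 2 or the DCA library of mouse 1 of experiment 1 (adjusted p = 0.0400 and 0.0477). Nlrc5 had -0.06 (adjusted p = 0.746) and Irf1 0.01 (adjusted p = 0.947), and neither passed. Of 18 other class I and class I-like genes 13 could be tested. Of these 1 rose and 1 fell, a share near the 16.8% of all tested genes called either way. Their median was 0.32, against -0.02 over all tested genes. Some of the 13 had few counts, with group averages of 1.42 to 4.32 CPM for H2-Q2 and 0.0696 to 1.23 CPM for Cd1d2. Cd1d1, which presents lipids, rose by 0.81 (SE 0.23, adjusted p = 0.0218). In experiment 1 it averaged 14.2 ± 1.00 CPM in DCA cells and 6.12 ± 3.16 CPM in untreated cells (log2 fold change 1.22, adjusted p = 0.0116). In experiment 2 its log2 fold change was 0.44 and did not pass (adjusted p = 0.462). H2-M3, which presents formylated peptides, had -0.29 (adjusted p = 0.0217), a call lost with the mouse as a term (adjusted p = 0.0626), under cyclic loess (adjusted p = 0.108) and without any DCA library of experiment 2, the untreated library of mouse 2 or 3 of experiment 2 or that of mouse 1 of experiment 1 (adjusted p between 0.0544 and 0.0640). H2-Q2 had 0.79 (adjusted p = 0.0884) and Cd1d2 1.41 (adjusted p = 0.172), and neither passed. H2-Q2 passed with limma-voom (0.98, adjusted p = 0.0305), with DESeq2 (adjusted p = 0.0498) and by edgeR without the DCA library of mouse 1 of experiment 1 (adjusted p = 0.0453).

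**Figure D5:**
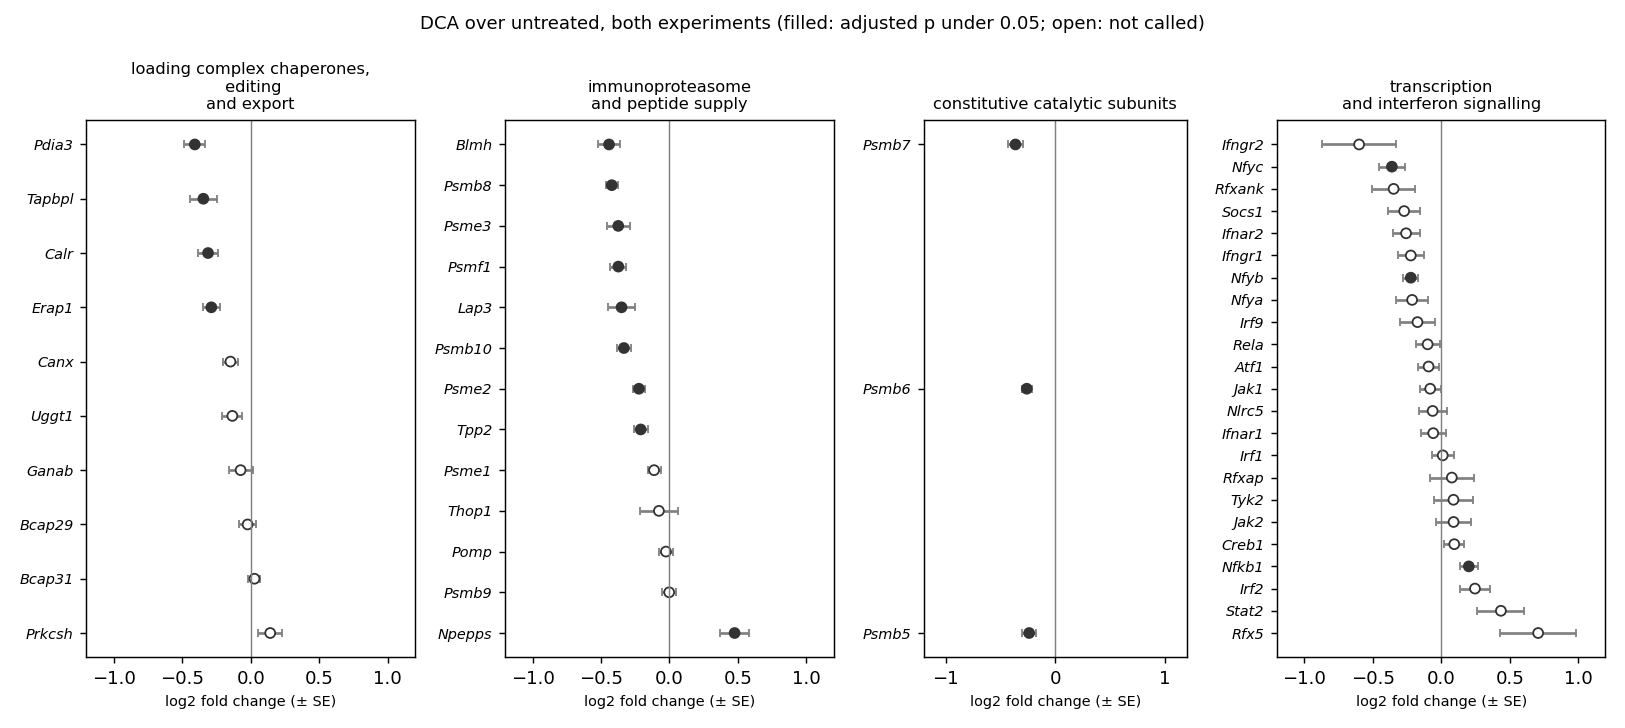
Log2 fold change of DCA over untreated cells over both experiments (x axes) for the tested genes of 4 lists (y axes); bars are SE and filled points passed the adjusted p of 0.05. Filled points lie mostly left of 0 among the chaperones and the proteasome genes, and 3 of 23 are filled among the transcription and interferon genes.

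Between the experiments the neighbouring lists were mixed. In untreated cells 11 of the 23 transcription and interferon genes were higher in experiment 2 than in experiment 1 and 5 were lower, with a median log2 fold change of 0.44, against 0.11 over all tested genes. For this count and those of the lists below, 26.7% of all tested genes were called higher and 51.8% in either direction. Irf1, a factor that binds interferon response elements, averaged 73.0 CPM in experiment 2 and 36.4 CPM in experiment 1 (log2 fold change 1.00, SE 0.11, adjusted p = 2.39e-06). Nlrc5 had a log2 fold change of 0.47 (SE 0.14, adjusted p = 0.0117). Of the other class I genes 7 of 13 were higher and 0 lower. Among chaperones 4 of 10 were higher and 4 lower, and among immunoproteasome and supply genes 3 of 13 were higher and 4 lower, which became 8 higher and 2 lower in each of these lists under cyclic loess. Psmb8 had a log2 fold change of 0.14 (adjusted p = 0.0625), Psmb9 of 0.48 (adjusted p = 1.91e-05) and Psmb6 of -1.80 (adjusted p = 1.87e-11).

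Within experiments the 10 genes did not vary as 1 block. Pearson's r between pairs of them over the 12 libraries, after each experiment's mean was removed, ran between -0.85 for B2m with Tapbp and 0.74 for H2-D1 with H2-T22. The values of each pair come from the same libraries and treatments. The genes outside the list most like the average of the 10 on this measure, among 7904 candidates, were Jaml (r = 0.92), Bhlhe40 (0.91), Ubald1 (0.90), Terf1 (0.87) and Aasdh (0.87). These values describe 12 libraries of which the DCA and untreated ones differ by treatment.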

How the data were processed

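Bulk RNA was sequenced from CD8+ T cells of 6 mice, in 12 libraries. The authors deposited whole-number read counts per gene, not normalized. The submitters' processing notes list STAR 2.7.10a, fastp 0.23.2 and edgeR 3.36.0, with the build GRCm39. Read counter, annotation release, strand option: not given in the sources used here. Antisense and overlapping genes could therefore not be separated. The authors' deposited table of DCA against untreated cells holds log2 fold changes, p-values and false discovery rates, and a gene length used here for CPM per kilobase.

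The main test was edgeR's quasi-likelihood test (version 4.0.16, R 4.3.3) with TMM factors and a filterByExpr filter on the 4 groups, with Benjamini-Hochberg adjusted p-values over 15688 genes and a threshold of 0.05. Adjusted p-values are from this test unless another tool is named. DCA over both experiments had a term for experiment, and the other comparisons were contrasts of 1 fit with 4 group means. Alternatives were RLE size factors, cyclic loess with limma 3.58.1, limma-voom, DESeq2 1.42.0, no filter, a filter at 5 CPM in 3 libraries, the mouse as a term, no experiment term, only the libraries compared, and each library left out. Symbols came from the authors' table for 15067 genes and a GRCm38 list for the rest.

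The 10 genes, the lists and the settings were chosen with earlier results of these data known. All 10 genes are named. Each list gives up to 4 genes by adjusted p plus fixed ones (Nlrc5, Irf1, Psmb8, Psmb9, Psmb10, Erap1, Tapbpl, Calr, Canx and Pdia3). Some list genes are not reported here. H2-T10 and, between experiments, Psmb6 were chosen after their values were seen. Per the labels each mouse gave both arms. Deviations from group means correlated at 0.0443 to 0.0834 within a mouse and at -0.0689 to -0.00438 between mice. Replicates differed by more than sampling noise (chi-square per degree of freedom 10.8 to 29.8). Reads carry no molecular identifiers. The edgeR, limma-voom and cyclic loess fits were tested on simulated data with changes larger than the DCA changes of the 10 genes. That test does not bear on changes as small as theirs.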

Additional observations from a re-analysis of the deposited data

How the results depend on the processing

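In the 19 settings run for both comparisons of the experiments, 9 of the 10 genes stayed called. Over both experiments, DCA called 2638 genes in all, and 46 without the experiment term; of the 10 genes it called 2 with cyclic loess, 2 with the 5 CPM filter, 0 without the experiment term, and 1 to 2 with 1 library left out. In experiment 1 it called 2622 genes, against 1251 when that experiment was fitted alone, and of the 10 genes 1 with cyclic loess and 0 when fitted alone. In experiment 2 it called 717 genes, against 1171 with limma-voom, 1512 with DESeq2, 1116 without a filter, 1564 when fitted alone and 210 to 824 with 1 library left out; of the 10 genes DESeq2 called 1. The difference of the DCA effects was called for 52 genes, against 30 with cyclic loess, 458 with DESeq2, 566 without a filter, 24 with a term per mouse and 1 to 217 with 1 library left out. Fitting the mice as pairs (replicate block) left 2094 genes called over both experiments and H2-T22 at -0.28 (adjusted p = 0.0165); it ended the calls of H2-M3 and Nfkb1 and no other call among the named genes. Only the libraries compared gives the same fit for the difference of effects.

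Signs turned, in log2 fold change over both experiments, under cyclic loess for H2-D1 (0.0620), H2-Q4 (-0.0027), H2-Q7 (0.0046), H2-T23 (0.099), Tap1 (0.065), Tapbp (0.0402), Canx (0.0027) and Psmb9 (0.15). The 5 CPM filter turned H2-T23 (0.0320), Tap1 (0.0048) and Psmb9 (0.0424). Psmb9 also turned with limma-voom (0.0050), without a filter (0.000198) and without the experiment term (0.0078). H2-Q7 in experiment 1 turned with cyclic loess (0.11), the 5 CPM filter (0.0378) and experiment 1 alone (0.0233), and H2-Q4 between experiments in untreated cells with cyclic loess (-0.24). With 1 library left out, ranges that crossed 0 were -0.0311 to 0.0170 for H2-T23, -0.11 to 0.0027 for Tap1, -0.0149 to 0.0243 for Psmb9, -0.11 to 0.0070 for Nlrc5 and -0.0245 to 0.0498 for Irf1 over both experiments, -0.0949 to 0.0011 for H2-Q7 in experiment 1, -0.0063 to 0.14 for B2m and -0.0177 to 0.0416 for H2-D1 in experiment 2, and -0.0746 to 0.15 for H2-Q4 between experiments in untreated cells. The cause was not tested. With 3 mice per group, a miss at the threshold does not show that groups were equal.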
